A study of Mus musculus with 4 samples.

Results

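Binding of Foxo1 around 5 genes for transcription regulators of T cell identity, Tcf7, Lef1, Satb1, Ikzf1 and Id3, was described from chromatin immunoprecipitation followed by sequencing (ChIP-seq) of mouse CD4+ T cells. A peak, a stretch of the genome in which the authors called enrichment of the recovered DNA, was counted for a gene when its summit lay in a fixed window of the mm9 genome build. The windows were chromosome 11 from 52016000 to 52147000 for Tcf7, chromosome 3 from 130763000 to 130978000 for Lef1, chromosome 17 from 51823000 to 52021000 for Satb1, chromosome 11 from 11535000 to 11723000 for Ikzf1 and chromosome 4 from 135649000 to 135752000 for Id3. They hold 14 of the 2507 peaks of an antibody ChIP and 3 of the 723 peaks of a biotin ChIP, 17 of 3230 peaks in all.

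The antibody ChIP used CD4+ cells of C57BL/6 mice and an antibody against endogenous Foxo1. The biotin ChIP used CD4+ cells of Foxo1tagBirA mice, also labelled C57BL/6, which carry a tagged Foxo1 and BirA, a bacterial ligase that adds biotin to a tag, and complexes were captured with streptavidin. The series also lists an input library for each method, so that each of its 4 samples is a single library in a group of its own. No value below has a replicate error. The number of animals, their age, the promoter that drives BirA and the activation state of the cells are not stated in the labels. Expression was not measured, so the cell type cannot be checked against marker genes and the windows are named for their genes alone.

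Foxo1 is a forkhead transcription factor. In resting T cells it resides in the nucleus and activates genes for survival and circulation. Signalling through PI3K and Akt leads to its phosphorylation and export from the nucleus. Tcf7 encodes TCF-1 and Lef1 its close relative, a pair of HMG-box factors that bind the same kind of DNA site, can work with beta-catenin, and are needed for T lineage development and kept in naive and memory cells. Satb1 encodes a chromatin organiser abundant in thymocytes, and Ikzf1 encodes Ikaros, a zinc-finger factor of lymphoid commitment. Id3 encodes a helix-loop-helix protein without a DNA-binding region, which holds E proteins away from DNA.

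Each window held at least 1 antibody peak, and the counts differed between genes. The Tcf7 window had 5 antibody peaks in 131 kb, the Ikzf1 window 3 in 188 kb, the Id3 window 3 in 103 kb, the Lef1 window 2 in 215 kb and the Satb1 window 1 in 198 kb. Biotin peaks were fewer, with 1 each in the Tcf7, Lef1 and Satb1 windows and 0 in the Ikzf1 and Id3 windows. Over all 5 windows, 0.835 Mb in total, this came to 16.8 antibody peaks and 3.59 biotin peaks per Mb. The whole lists had 1.01 and 0.290 peaks per Mb between the outermost peaks of each chromosome. The antibody density was 12.8 per Mb without the Tcf7 window and 20.4 per Mb without the Satb1 window. These genes were chosen with earlier results of the same lists known, so the densities describe the windows and are no test of them.

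**Figure D1:**
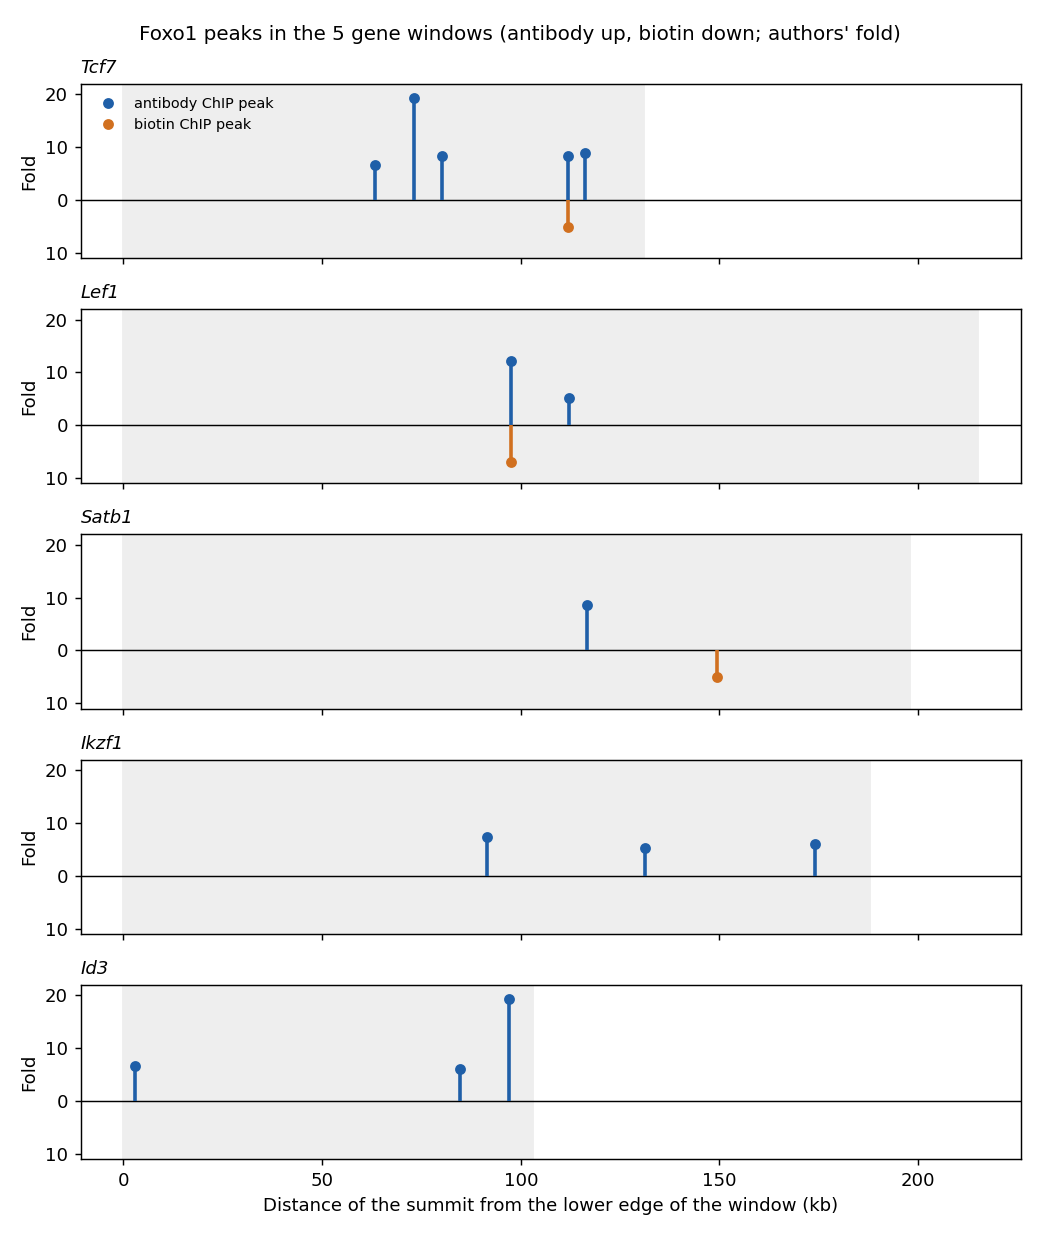
Summits of antibody peaks (blue, upward) and biotin peaks (orange, downward) in each window, with the distance from the lower edge of the window in kb on the x axis and the authors' fold on the y axis. Grey marks the extent of the window. Tcf7 carries 5 antibody peaks in 2 groups, and an antibody and a biotin summit stand at nearly the same place for Tcf7 and Lef1 and apart for Satb1.

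To place these counts, each chromosome was divided into consecutive tiles as long as a window. At least 5 antibody peaks, the Tcf7 count, were found in 7 of 19026 tiles of 131 kb (0.0368%). At least 3 were found in 0.446% of tiles of the Id3 length and in 1.24% of tiles of the Ikzf1 length. The Lef1 count of 2 or more occurred in 4.67% of tiles, and the Satb1 count of 1 or more in 13.6%. For the biotin list, at least 1 peak was found in 3.42% of tiles of the Tcf7 length, 5.52% of the Lef1 length and 5.09% of the Satb1 length. The biotin count of 0 at Ikzf1 and Id3 was the usual one, met by 95.1% of tiles of the Ikzf1 length and 97.3% of the Id3 length. Among the 5 windows, that of Tcf7 had the count least often met by tiles of its length, and that of Satb1 the count most often met. Tile edges fall at arbitrary places, and none of the 7 tiles overlapped the Tcf7 window, whose peaks the tiling split. Tiles cover gene-poor sequence as well, and a comparison with windows around other expressed genes was not made. The genes were chosen with earlier results of the same lists known. The shares of tiles therefore describe the windows and are not probabilities of their counts.

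**Figure D2:**
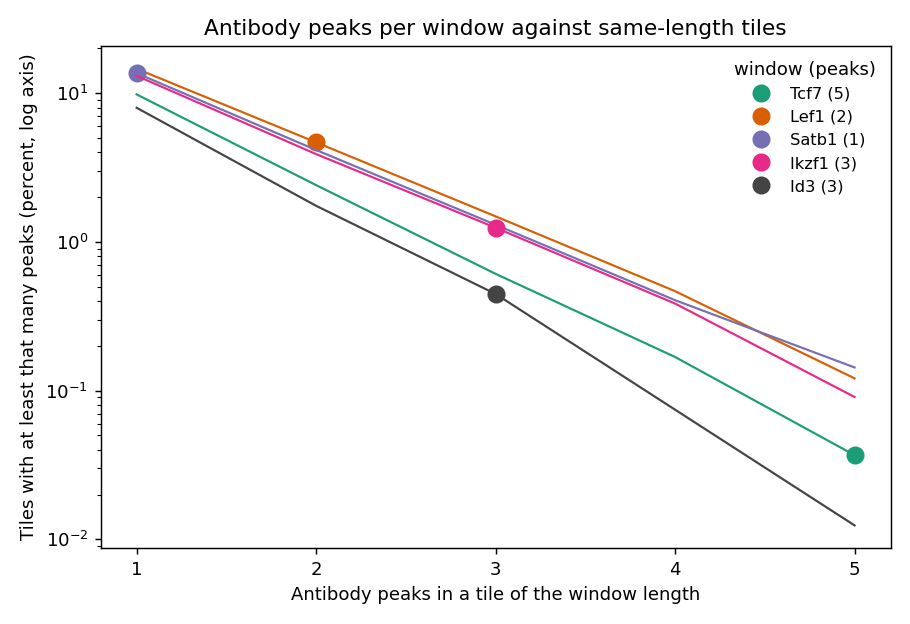
Share of same-length tiles (y axis, percent, log scale) that hold at least a given number of antibody peaks (x axis), with 1 line per window length and a point at the count of each window. The point of Tcf7, at 5 peaks, lies lowest, at 0.0368% of tiles, and that of Satb1 highest, at 13.6%. The shares describe the windows and are no test of them.

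The 5 antibody peaks of Tcf7 formed 2 groups. In the first group, the peak at 52079351 to 52079386 on chromosome 11 had a fold of 6.63, the peak at 52089043 to 52089059 one of 19.2, and the peak at 52096064 to 52096141 one of 8.22. The fold is the authors' own enrichment value for each peak, and the labels and headers do not name its denominator, so it ranks peaks within a list only. The middle peak ranked 285 of 2507 in the antibody list and was far above its neighbours, whose ranks were 1996 and 1544. It was also very narrow, at 17 bp, and 4.55% of antibody peaks were that narrow or narrower. Successive summits in this group lay 9.68 and 7.07 kb apart.

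The second Tcf7 group followed 31.8 kb further along the chromosome, towards higher coordinates. Its peaks lay at 52127915 to 52127955, with a fold of 8.28, and at 52132193 to 52132249, with a fold of 8.91, and their summits were 4.29 kb apart. Tcf7 is encoded on the minus strand, so higher coordinates are the side on which its transcripts start. The start itself was not located in mm9, so neither group is placed relative to it. All 5 Tcf7 summits had another antibody summit within 10 kb, and no other peak of the 14 did. Over the whole antibody list, 19.1% of peaks had such a neighbour. All 5 were also narrower than the list's median width of 90 bp, with widths from 17 to 78 bp. Of all 14, 9 were narrower than the median, against 49.4% of the list.

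The single biotin peak in the Tcf7 window lay beside the second group, at 52127748 to 52127822. It had a fold of 5.21 and ranked 406 of 723. Between it and the antibody peak of fold 8.28 there were 92 bp, and their summits were 143 bp apart. The peaks therefore did not overlap, although they lay less than 200 bp apart by summit. The strongest Tcf7 antibody peak, with a fold of 19.2, had its nearest biotin peak 38.7 kb away.

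Lef1 was the only one of the 5 genes at which an antibody peak overlapped a biotin peak by at least 1 bp. The antibody peak lay at 130860561 to 130860675 on chromosome 3, with a fold of 12.2 and rank 765 of 2507. The biotin peak lay at 130860457 to 130860573, with a fold of 6.99 and rank 235 of 723. They shared 13 bp, which is 11.3% of the shorter peak, and their summits were 25 bp apart. The pair would not count as shared if 50% of the shorter peak had to be covered. Both stood at a similar place in their lists by fold, 30.5% and 32.5% from the top. The second Lef1 antibody peak, at 130875178 to 130875214, was weak, with a fold of 5.12 and rank 2330. Its summit lay 14.6 kb from the first, and no biotin peak was nearer than the one just described.

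**Figure D3:**
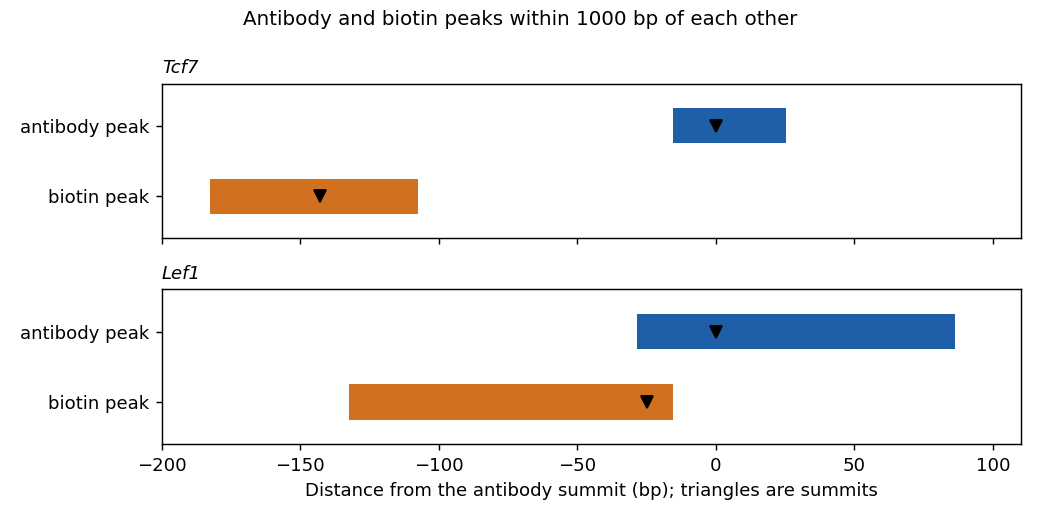
The antibody peaks (blue) and biotin peaks (orange) that lay within 1000 bp of each other, as bars along the distance from the antibody summit in bp, with triangles at the summits. The Lef1 peaks share 13 bp, and the Tcf7 peaks are separated by 92 bp.

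A biotin partner was found for 1 of the 14 antibody peaks (7.14%, exact Clopper-Pearson 95% interval 0.181 to 33.9%), against 13.6% of the whole antibody list. Of the 3 biotin peaks, 1 overlapped an antibody peak (33.3%, 0.840 to 90.6%), against 47.2% of the whole biotin list. With a partner within 1000 bp counted, Tcf7 joined Lef1, and the shares were 2 of 14 against 17.0% of the list and 2 of 3 against 56.0%. Both list shares lay inside the members' intervals, so a difference from the lists was not detectable with this number of peaks. The intervals cover counting error over peaks only. A list deposited with the antibody input holds 682 intervals, all identical to peaks of the ChIP lists, which have 3230 peaks in all. From the 5 windows it holds 2 of 17 peaks, the Lef1 pair. In the whole lists, 341 antibody peaks and 341 biotin peaks overlapped by at least 1 bp. The deposited list is drawn from the same peaks, so it is no further evidence that the Lef1 pair is shared.

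The Satb1 window had a peak in each list, but at separate places. The antibody peak lay at 51939663 to 51939714 on chromosome 17, with a fold of 8.56 and rank 1445 of 2507. The biotin peak lay at 51972247 to 51972397, with a fold of 4.93 and rank 451 of 723. The gap between them was 32.5 kb. The biotin peak was 1 of the 145 biotin peaks (20.1%) whose p-value the authors' list gives as 0, the lowest value a list can hold. At 151 bp it was also wide, with 88.1% of biotin peaks as narrow or narrower. The nearest summits outside the window lay 275 kb below the lower edge (antibody, fold 5.23) and 281 kb above the upper edge (antibody, fold 9.31). Below the windows of Tcf7, Lef1, Ikzf1 and Id3, and above those of Tcf7 and Id3, the nearest outside summits were closer. Above the windows of Lef1 (4199 kb) and Ikzf1 (8918 kb) they were farther away.

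The Ikzf1 window held 3 antibody peaks, all of low fold, and 0 biotin peaks, the biotin count of 95.1% of tiles of its length. They lay on chromosome 11 at 11626253 to 11626520, at 11666239 to 11666355 and at 11708917 to 11709040, with folds of 7.36, 5.33 and 6.05 and ranks of 1798, 2290 and 2147 of 2507. Their summits were 39.9 and 42.6 kb apart, so they did not form a group as at Tcf7. Unlike the narrow Tcf7 peaks, they were 268, 117 and 124 bp wide, each above the list's median of 90 bp, and the first was wider than or as wide as 99.0% of the list. The nearest biotin peak on the chromosome was 5985 kb away.

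The window of Id3, the inhibitor of E proteins, held the antibody peak of highest fold among the 14. This peak lay at 135745942 to 135746048 on chromosome 4, with a fold of 19.3 and rank 283 of 2507. A weaker peak, 12.2 kb below it by summit at 135733750 to 135733809, had a fold of 6.06, and another at 135651819 to 135651907 had a fold of 6.56. In this order, the 3 summits stood at 45.5, 33.3 and -48.6 kb from the centre of the window. Id3 itself is 1.57 kb long in GRCm38, and E2f2 is a protein-coding neighbour within 50 kb. The peaks therefore cannot be assigned to Id3 by position. The strongest peak had no biotin peak nearer than 121 kb. A biotin peak with a fold of 5.86 lay outside the Id3 window, 39.6 kb below its lower edge and 42.4 kb from the nearest Id3 antibody peak.

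Most member peaks were of modest strength within their lists. The 14 antibody folds ranged from 5.12 to 19.3 with a median of 7.79, and the whole list had a median of 9.43. The fold was 10 or more for 3 of 14 peaks (21.4%, 4.66 to 50.8%), against 45.1% of the list. These were 1 peak each of Tcf7, Lef1 and Id3. The 3 biotin folds were 4.93, 5.21 and 6.99, and the last of these, that of Lef1, was above the list's median of 5.61. P-values above 1e-12, near the largest in the antibody list (7.49e-12), belonged to 6 of 14 member peaks (42.9%, 17.7 to 71.1%) and to 12.9% of the list. Of these 6 peaks, 3 were of Tcf7 and 1 each of Lef1, Ikzf1 and Id3. The Lef1 antibody peak that met a biotin peak was the only 1 of the 14 with a p-value listed as 0, against 16.2% of the list. The authors' p-values for the strongest Tcf7 and Id3 peaks were 2.22e-16 and 3.33e-16, nearly as low. A listed 0 is therefore not read as setting a peak apart. Of the 7 antibody shares set against the list (overlap, partner within 1000 bp, p-value of 0, p-value above 1e-12, fold, width and neighbour within 10 kb), the list's share lay inside the members' interval for 6 and below it for the p-values above 1e-12. Each interval treats peaks of 1 library as independent, yet 3 of the 6 peaks behind the exception share the Tcf7 window. That interval may therefore be too narrow, and no correction was made for comparing 7 shares. Only the interval for overlap was planned, and the limit of 1e-12 was not. The shares are thus descriptions, and the excess of p-values above 1e-12 is not established.

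**Figure D4:**
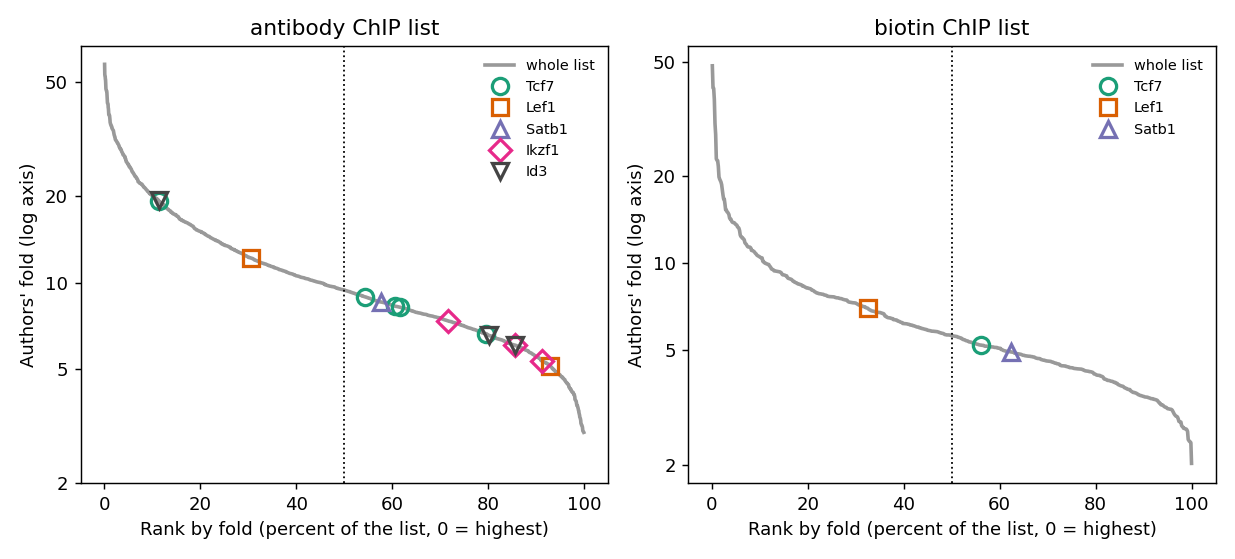
The authors' fold (y axis, log scale) against the rank by fold in percent of the list (x axis) for all antibody peaks (left) and all biotin peaks (right), as grey curves, with open symbols for the peaks of each gene and a dotted line at 50 percent. In the antibody list 3 symbols, of Tcf7, Id3 and Lef1, lie left of the dotted line and 11 lie right of it.

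The windows reach beyond the genes, and peaks cannot be assigned to a gene by position alone. Each window was longer than its gene by 94.1 kb (Tcf7) to 101 kb (Id3), using gene lengths of the RefSeq table for GRCm38.p6, another build. The rule does not say how the surplus is split, and no annotation of mm9 was used, so peaks were not called promoter, intronic or intergenic. Of the 14 antibody peaks, 8 lay over 50 kb from both edges, namely 3 of 5 for Tcf7, 2 of 2 for Lef1, 1 of 1 for Satb1, 2 of 3 for Ikzf1 and 0 of 3 for Id3. The same held for 1 of the 3 biotin peaks, that of Lef1. These counts depend on window length and do not compare the genes. Hardly any of the 103 kb Id3 window can lie over 50 kb from both edges, unlike the 215 kb Lef1 window. Within 50 kb of the genes, the GRCm38 table also lists Skp1 and Olfr1371 beside Tcf7, Hadh beside Lef1, Fignl1 and Ddc beside Ikzf1 and E2f2 beside Id3 as protein-coding neighbours, and 0 beside Satb1.

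The choice of window edge mattered most for Id3 and Tcf7. Just inside the lower Id3 edge, by 2.88 kb, stood the antibody peak of fold 6.56, and the strongest Id3 peak lay 6.01 kb inside the upper edge. With the remaining summit 18.2 kb from an edge, all 3 Id3 peaks would be lost from a window shortened by 25 kb on each side. Just outside the upper Tcf7 edge, by 7.75 kb, stood an antibody summit with a fold of 7.60. The outermost Tcf7 peak inside, of fold 8.91, was 14.8 kb from that edge. The last Ikzf1 peak, of fold 6.05, lay 14.0 kb inside its upper edge. For Lef1, the summit nearest to an edge on the inside was 97.6 kb from it, and the nearest outside was an antibody summit of fold 18.9 at 113 kb below the lower edge.

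The sequences under the peaks were not analysed here, since they need the mm9 genome. RefSeq promoter sequences (GRCm38.p6, from 250 bases before to 50 after an annotated start, 300 bases each) were searched instead for the forkhead core GTAAACA on both strands (TGTTTAC on the other). All 5 genes matched, with 14 promoters among them. A match was found in 1 of the 14, an inner start of Tcf7, against 3.65% of the 32851 promoters of the table. Counted by gene, since promoters of a gene are not independent, this was 1 of 5, against 4.05% of 27025 genes. A related core, ATAAACA, which reads TGTTTAT on the other strand, was added after the first search. It was found in 1 of the 14, an inner start of Lef1, against 4.60% of all promoters, and by gene in 1 of 5, against 5.28%. Both sites are shown because they are the forkhead-type letters nearest to an annotated start of a member. They are 5′ to 3′ on the strand of the gene, with the core in capitals.
Tcf7, chr11:52282576-52282605, minus strand: cctttataggaGTAAACAgacccccgccat
Lef1, chr3:131156297-131156326, plus strand: tcaagaaaaggTGTTTATctctattgaagc
These positions are of GRCm38.p6 and cannot be set beside the mm9 positions of the peaks. A match is a description of the letters. Its absence from the promoters of Satb1, Ikzf1 and Id3 says only that these letters are not in those stretches of 300 bases. The gene windows themselves were not searched.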

How the data were processed

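Peak lists of the antibody and biotin ChIP libraries were used as deposited. Tools named for the data are CASAVA 1.4 and Bowtie 0.12.7, with build mm9, per the submitters' processing notes. No label or header names the peak caller. File names of both lists carry a false discovery rate of 0.05. Per the file headers, each list gives a fold (a linear ratio) and a p-value for each peak, both the authors' own values. Read counts were not part of the lists, so depth is unknown and a peak missing from a list does not show absence of binding.

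Starts were raised by 1 to count from 1, since no summit fell on a start and 58 antibody and 10 biotin summits fell on an end. A shared peak is one with an overlap of at least 1 bp. Tiles ran between the outermost summits of both lists on each chromosome. Intervals are exact Clopper-Pearson intervals (SciPy 1.17.1). The overlap count was tested on simulated data and found 200 of 200 planted overlaps. With 1 library in each group, no test between conditions was made. All 5 genes and every peak in their windows are named. A list of related T cell genes was not used, as it needed an annotation of mm9. The members, windows and lists were chosen with earlier results of these data known. Alternatives tried were stricter and looser criteria for sharing, wider and shorter windows, any base of the peak in the window, and the top 50% of each list by fold.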

Additional observations from a re-analysis of the deposited data

How the results depend on the processing

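With windows widened by 50 kb on each side the antibody count was 15 and the biotin count 4. With windows shortened by 25 kb on each side they were 8 and 2, since 6 antibody peaks lay within 25 kb of an edge. In the top 50% of each list by fold they were 3 and 1, as 11 of the 14 antibody and 2 of the 3 biotin peaks ranked in the lower 50% of their list. The single shared peak, at Lef1, remained under these 3 settings. When 50% of the shorter peak had to be covered, 0 shared peaks were left, in 0 windows. With summits within 200 bp there were 2 shared antibody peaks in 2 windows, as the Tcf7 pair was then counted. With peaks within 1000 bp there were likewise 2 in 2, and 17.0% of the whole antibody list had such a partner. Shares of the whole list under the 50% and 200 bp criteria are not given here. The counts under those criteria are therefore not read as unusual or usual. Placing a peak by any of its bases changed no count. No paired analysis was possible because every group is a single library, so no library could be left out. Depth is unknown and limits every statement on a missing peak.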
